A study of Mus musculus with 13 samples.

Results

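The genes described here are 10 genes of the cellular stress response, out of 55401 named gene identifiers in the deposited table. They are the transcription factors Atf3, Atf4, Atf5, Ddit3 and Cebpb, the transcriptional co-regulator Nupr1, the pseudokinase Trib3, the enzyme Chac1 and the secreted hormones Gdf15 and Fgf21. They were taken by gene symbol, and for Ddit3, the symbol with a second identifier, the row with more counts was used. The list was drawn up with earlier results of these same libraries known, so the members were in effect chosen by their changes between the groups. Their adjusted p values are therefore a description and not independent evidence. The symbols name no threshold, so there are no genes just inside or outside one. Of the 10 members, 8 passed the filter on low counts and were tested among 14985 genes. Gdf15 and Fgf21 did not pass it and are described by their counts.

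The libraries came from snap-frozen brain hemispheres of male wild-type C57BL/6J mice. The CTL group (n = 5) received control chow for 6 weeks. The CPZ group (n = 4) received chow with 0.3% cuprizone, a copper chelator that injures oligodendrocytes, for 4 weeks. The RCV group (n = 4) received the same cuprizone chow for 4 weeks and then control chow for 2 weeks. CPZ mice were taken after 4 weeks and the CTL and RCV mice after 6 weeks, so the time on study and cuprizone feeding cannot be told apart in CPZ against CTL. The labels give an age of 6 to 8 weeks and the study's methods about 10 weeks. The 3 groups share sex, strain and housing, and no transgene or drug other than cuprizone is named. The design text of the series and the study's methods give 4 CTL, 3 CPZ and 3 RCV mice, fewer than the 5, 4 and 4 libraries. Neither they nor the sample labels tie a library to a mouse. A figure legend of the study instead counts 13 samples, 5 control, 4 CPZ and 4 recovery, all with bulk RNA-seq. As these sources differ, some libraries may share a mouse. Each n therefore counts libraries, and each SD and p measures the spread between libraries. RCV libraries carry titles that open with "Veh", and were assigned to their group by the treatment label.

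The integrated stress response is a common answer of cells to amino acid shortage, misfolded protein in the endoplasmic reticulum, mitochondrial damage and double-stranded RNA. A set of kinases phosphorylates the translation factor eIF2alpha, which slows protein synthesis in general but favours translation of a few messages, among them Atf4, Atf5 and Ddit3. ATF4 then binds composite C/EBP-ATF elements with C/EBP partners and turns on genes of amino acid supply, and also Atf3, Ddit3, Trib3, Nupr1 and Chac1. Because Atf4 and Atf5 are controlled in large part at translation, the RNA level does not give the amount of protein. In the cuprizone model this response is known from oligodendrocytes, the cells that make myelin.

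The promoters of the members are shown for the binding element of ATF4. Atf3, Ddit3, Trib3, Nupr1 and Chac1 are known ATF4 targets, as given above. A high share of matches among the members was therefore likely in advance and is a description. The windows, from RefSeq on GRCm38.p6, run from 250 bases before to 50 bases after each annotated start, and all 10 members had at least 1 window. The C/EBP-ATF element was searched as the letters TGATGNAA on both strands. It was present in windows of 5 of the 10 members, Atf3, Nupr1, Trib3, Chac1 and Fgf21, the last of which was not tested. Beside this stand 2.73% of the 11340 tested genes with a window and 3.97% of all 32851 windows. In Atf3 and Nupr1 it began 110 bases before the start, in Fgf21 139 bases and in Chac1 193 bases before it, each time as the same 8 letters, and in Trib3 it began at base 14 after the start. The lines below give 100 bases around the element for 4 genes and 30 bases for Trib3, all 5′ to 3′ on the strand of the gene, with the element in capitals. They lie at chr1:191183390-191183489 on the minus strand (Atf3), chr7:126625527-126625626 on the minus strand (Nupr1), chr2:119351003-119351102 on the plus strand (Chac1), chr7:45615576-45615675 on the minus strand (Fgf21) and chr2:152344028-152344057 on the minus strand (Trib3).
Atf3: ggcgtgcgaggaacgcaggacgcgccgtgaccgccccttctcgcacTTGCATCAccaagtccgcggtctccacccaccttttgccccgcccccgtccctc
Nupr1: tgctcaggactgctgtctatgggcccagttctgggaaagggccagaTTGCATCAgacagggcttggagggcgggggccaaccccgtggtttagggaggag
Chac1: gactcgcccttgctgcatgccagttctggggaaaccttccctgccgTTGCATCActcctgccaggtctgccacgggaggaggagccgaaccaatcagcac
Fgf21: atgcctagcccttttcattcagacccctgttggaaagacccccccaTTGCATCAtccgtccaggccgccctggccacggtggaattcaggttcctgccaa
Trib3: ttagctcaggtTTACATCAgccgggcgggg

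Atf5, one of the strongly changed members, had no match to the element in either of its 2 windows. The 150 bases before its upstream start, at chr7:44816659-44816808 on the minus strand, are shown with no capitals because no searched motif was found in them.
Atf5: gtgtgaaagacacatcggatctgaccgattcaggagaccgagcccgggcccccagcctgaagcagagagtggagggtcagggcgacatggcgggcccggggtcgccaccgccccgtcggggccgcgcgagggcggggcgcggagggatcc

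The other motifs searched, on both strands, were the cyclic AMP response element (TGACGTCA), the AP-1 element (TGANTCA), the C/EBP element (TTGCNNAA), CCAAT and TATAAA. The AP-1 element was found in 1 member, Ddit3, against 6.13% of tested genes with a window (7.81% of all windows). The first and the third of these were in no member window, against 3.54% and 9.82% of tested genes (1.79% and 10.8% of all windows). CCAAT was found in windows of 6 members (42.8% of tested genes, 37.4% of all windows) and TATAAA in windows of 3 (8.83% and 13.6%). A match is a string of letters and not a bound site. In Atf3 and Nupr1 the GENCODE M21 gene reaches upstream of the RefSeq start, so the windows shown belong to one of several starts. Among genes of the pathway listed as ATF4 targets, only 35 of the 45 tested had a window (77.8%), so their share of matches is not given.

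**Figure D1:**
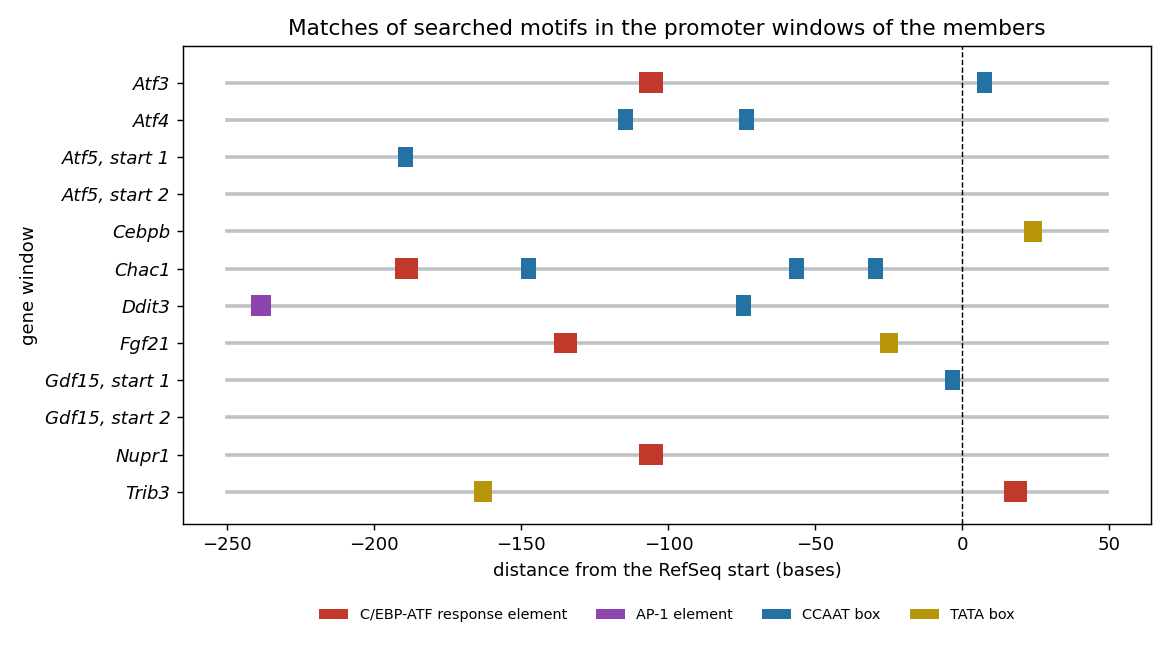
Positions of motif matches in the RefSeq windows of the members, as distance from the start in bases on the x axis, with 1 line per window and 1 colour per motif. The C/EBP-ATF element lies upstream of the start in Atf3, Chac1, Fgf21 and Nupr1, downstream of it in Trib3, and is not found in the other 7 windows.

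Library totals lay between 4605100 and 8197289 estimated counts, with between 20011 and 21615 named genes detected. Of 14985 genes tested, 7.66% were called higher and 2.5% lower in CPZ against CTL at an adjusted p below 0.05. In RCV against CTL 0.36% were called higher, and in CPZ against RCV 5.13% were called higher and 1.88% lower. Markers of 3 cell types moved with the CPZ group. The summed level of 10 microglia markers was 356 to 424 CPM (counts scaled to library size by TMM) in CTL, 1180 to 2399 in CPZ and 534 to 740 in RCV, and 10 of 10 were called higher in CPZ against CTL. The summed level of 10 markers of mature oligodendrocytes was 4378 to 8210 CPM in CTL, 1860 to 3173 in CPZ and 5757 to 9853 in RCV, and 10 of 10 were called lower in CPZ against CTL. The summed level of 8 astrocyte markers was 3649 to 3984 CPM in CTL, 4378 to 5259 in CPZ and 4350 to 4894 in RCV, with 5 of 8 called higher in CPZ against CTL. Much of this rise was Gfap, which alone went from a mean of 165 CPM in CTL to 890 CPM in CPZ. Markers of monocytes and neutrophils, 6 in number, summed to 0.144 to 1.39 CPM in CPZ, where Retnlg was at 0. Their sum was 0.408 to 11.7 CPM in CTL and 0.81 to 10.6 CPM in RCV. Neuronal markers were present at a summed 4599 to 5864 CPM over the libraries of the 3 groups. In bulk tissue, fewer cells of a type and less RNA per cell cannot be told apart. The part of these cell types in the results below was not tested.

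In all, 6 members were higher at the end of cuprizone feeding than in control brains, Atf3, Trib3, Atf5, Nupr1, Ddit3 and Atf4, in order of fold change. These 6 of 8 tested members stand beside 7.66% of all genes called higher in CPZ against CTL, and 0 of 8 called lower beside 2.5% of all genes. Since the members were chosen with this contrast known, and Atf3 and Trib3 passed the filter on low counts through their CPZ libraries (they did not pass it among CTL and RCV alone), these counts are a description. At an unadjusted p below 0.05 the edgeR test had 8 members higher and 0 lower, and DESeq2 and limma-voom also called 6 higher and 0 lower. The median log2 fold change of the 8 was 1.76, against -0.02 over all genes tested. In 6 of the 8 every CPZ library lay above every CTL library, which held for 8.25% of all genes tested, and in Gdf15 this was so too. Gdf15 passed the filter without CPZ replicate 4, where the median became 2.82, and without any one of the 4 RCV libraries, where it was 2.70 to 2.71. It also entered with no filter on low counts, where the median was 2.72.

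**Figure D2:**
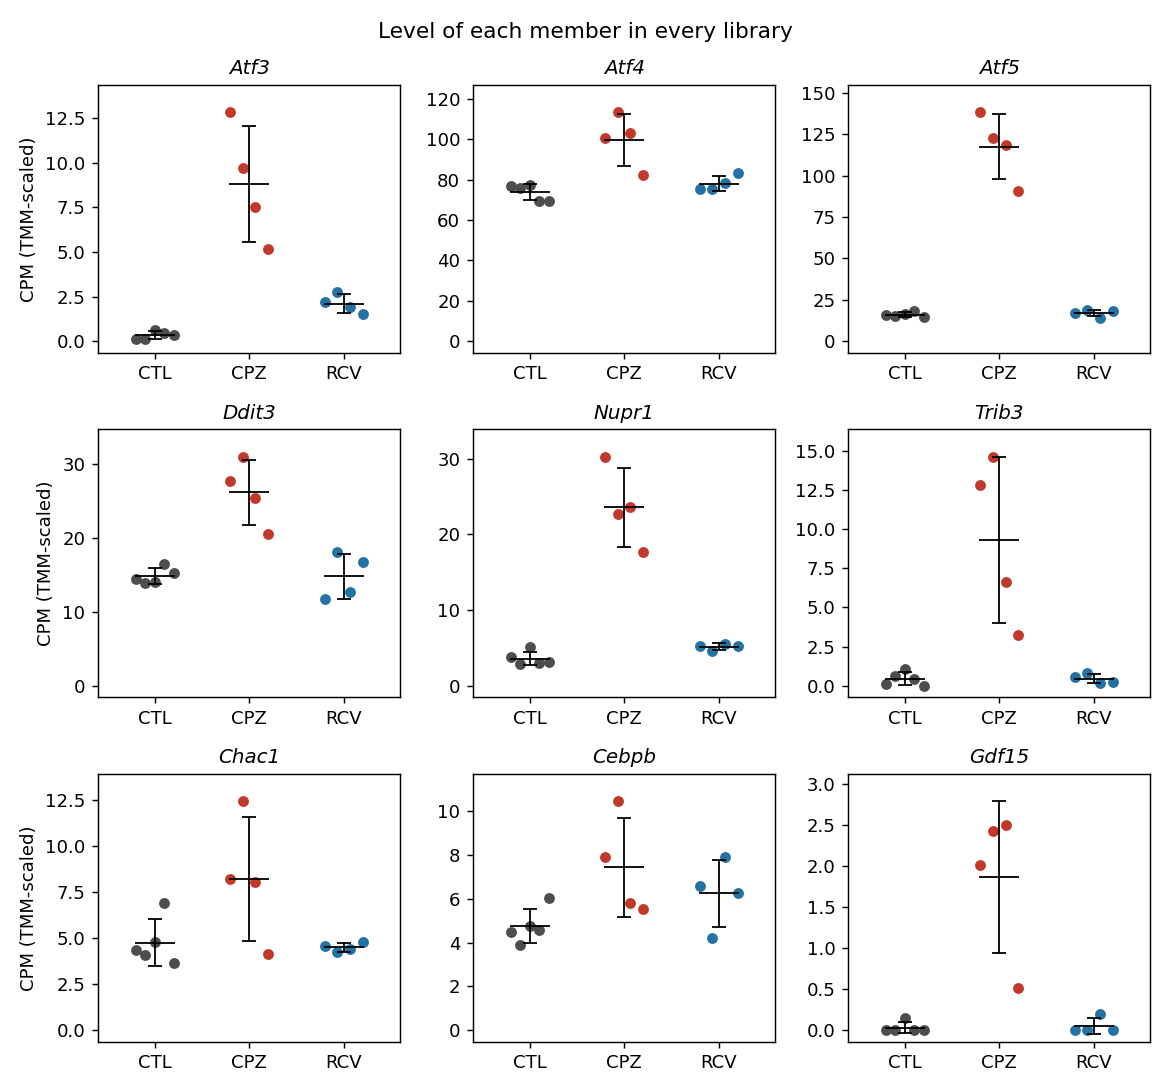
TMM-scaled CPM of the 9 members with any count, on the y axis, in each library of CTL, CPZ and RCV, with 1 point per library and the group mean ± SD as a bar and whiskers. The CPZ points stand clear of the CTL points in Atf3, Atf4, Atf5, Ddit3, Nupr1, Trib3 and Gdf15, and overlap with them in Chac1 and Cebpb.

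Atf4, the central transcription factor of the response, lies on chromosome 15 (mm10, 80255184 to 80257541, plus strand). Its level in the CTL libraries was 76.8, 75.8, 77.2, 69.6 and 69.5 CPM, in the CPZ libraries 100.4, 113, 103 and 82.1 CPM, and in the RCV libraries 75.2, 75.3, 78.3 and 83.1 CPM. All 4 CPZ libraries were above all CTL libraries, while CPZ replicate 4 lay just below RCV replicate 4. The log2 fold change of CPZ against CTL was 0.43 ± 0.078 (SE, edgeR adjusted p = 0.0012), which is the smallest among the called members. In CPZ against RCV it was 0.36 ± 0.083 (edgeR adjusted p = 0.015). This second call was lost on the TPM scale and without CPZ replicate 2 (edgeR adjusted p = 0.061) or RCV replicate 1 (edgeR adjusted p = 0.054).

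Atf5 (chromosome 7, 44812256 to 44816658, minus strand), a factor closely related to ATF4 that is linked to the mitochondrial stress response, showed the smallest adjusted p of the members. The CTL libraries held 15.6, 15.3, 16.3, 18.5 and 14.9 CPM, the CPZ libraries 138, 123, 119 and 90.9 CPM and the RCV libraries 17.3, 18.8, 14.1 and 18.0 CPM. The lowest CPZ library was several times above the highest library of either other group, and CTL and RCV overlapped. The rise was 7.28-fold, a log2 fold change of 2.86 ± 0.114 (SE, edgeR adjusted p = 3.6e-10), and in CPZ against RCV it was 2.78 ± 0.125 (edgeR adjusted p = 4.3e-09). The gene shares 571 bases with Nup62 and 272 bases with Il4i1, both on the opposite strand, and whether counting used strand is not given in the sources used here. Il4i1 was also higher in CPZ (2.87 ± 0.395, edgeR adjusted p = 0.0001), at a mean of 3.73 CPM, and Nup62 at 25.5 CPM was not called (edgeR adjusted p = 0.12).

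Atf3 (chromosome 1, 191170296 to 191218039, minus strand), a stress-induced factor known mainly as a repressor, was near the limit of detection in control brains. Its counts were 1 to 4 in the CTL libraries (0.136, 0.15, 0.615, 0.459 and 0.367 CPM), 89, 80, 54 and 40 in the CPZ libraries (12.8, 9.72, 7.49 and 5.17 CPM) and 15, 17, 10 and 7 in the RCV libraries (2.20, 2.75, 1.93 and 1.52 CPM). The 3 groups did not overlap, with RCV between CTL and CPZ. The log2 fold change was 4.62 ± 0.373 (SE, edgeR adjusted p = 8.7e-07) in CPZ against CTL and 2.03 ± 0.308 (edgeR adjusted p = 0.00077) in CPZ against RCV. Over the summed counts, the ratio of CPZ to CTL was 25.8, with a 95% counting interval of 14.2 to 52.4 that covers counting error only.

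Ddit3 (chromosome 10, 127290774 to 127296288, plus strand) encodes CHOP, a C/EBP family factor that is known to promote cell death under lasting endoplasmic reticulum stress. The CTL libraries held 14.4, 14.0, 14.0, 16.5 and 15.2 CPM, the CPZ libraries 27.8, 31.0, 25.4 and 20.5 CPM and the RCV libraries 11.7, 18.1, 12.7 and 16.7 CPM. The CPZ libraries were all above the other libraries, and RCV spread around CTL. The rise was 1.77-fold, with a log2 fold change of 0.82 ± 0.135 (SE, edgeR adjusted p = 0.00055) against CTL and 0.83 ± 0.146 (edgeR adjusted p = 0.0024) against RCV. A second identifier with this symbol held 6 counts over all libraries, and the gene shares 68 bases with the methionyl-tRNA synthetase gene Mars on the opposite strand.

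Cebpb (chromosome 2, 167688915 to 167690418, plus strand), a C/EBP factor that pairs with ATF4 and is also used in immune cells, did not pass the test in any comparison. The CTL libraries held 4.49, 3.90, 4.76, 4.59 and 6.05 CPM, the CPZ libraries 7.92, 10.5, 5.83 and 5.55 CPM and the RCV libraries 6.60, 4.21, 7.89 and 6.29 CPM. The 3 groups overlapped. The log2 fold change of CPZ against CTL was 0.65 ± 0.219 (SE, edgeR adjusted p = 0.073), and without CPZ replicate 4 it was 0.77 (edgeR adjusted p = 0.043). In 22 of the 23 alternatives Cebpb was not called in this comparison. Cebpb shares 908 bases with Tmem189 on the opposite strand, which was itself not called and higher in level, at a mean of 42.8 CPM in CTL.

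Nupr1 (chromosome 7, 126623249 to 126630861, minus strand) encodes a small chromatin-associated protein known to be induced by many stresses. The element printed above lies within this span. The CTL libraries held 3.81, 2.85, 5.07, 3.06 and 3.12 CPM, the CPZ libraries 30.3, 22.7, 23.6 and 17.7 CPM and the RCV libraries 5.28, 4.54, 5.58 and 5.20 CPM. CPZ was clear of both other groups, and 3 of the 4 RCV libraries lay above all CTL libraries. Nupr1 rose by a log2 fold change of 2.71 ± 0.177 (SE, edgeR adjusted p = 2.4e-07) against CTL and 2.19 ± 0.186 (edgeR adjusted p = 1.7e-05) against RCV.

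Trib3 (chromosome 2, 152337422 to 152344032, minus strand), a pseudokinase known as a target of ATF4 and CHOP that dampens the response, was almost silent outside CPZ. Its level was 0.136, 0.60, 1.08, 0.459 and 0 CPM in CTL, 12.8, 14.6, 6.66 and 3.23 CPM in CPZ, and 0.586, 0.81, 0.193 and 0.217 CPM in RCV. The CPZ libraries did not overlap with the others, but spread more widely on the log2 scale than those of any other called member. Trib3 rose by a log2 fold change of 4.29 ± 0.564 (SE, edgeR adjusted p = 0.00011) against CTL and 4.23 ± 0.627 (edgeR adjusted p = 0.00093) against RCV. Over the summed counts of 282 against 15, CPZ was 20.3 times CTL, with a 95% counting interval of 12.1 to 36.8 that covers counting error only.

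Chac1 (chromosome 2, 119351229 to 119354381, plus strand), an enzyme that breaks down glutathione, carries the same 8-letter element as Atf3 and Nupr1 but did not pass the test. The CTL libraries held 4.35, 4.05, 4.76, 6.88 and 3.67 CPM, the CPZ libraries 8.21, 12.4, 8.05 and 4.13 CPM and the RCV libraries 4.54, 4.21, 4.43 and 4.77 CPM. CPZ replicates 1 to 3 were above all other libraries, and CPZ replicate 4 lay within the CTL range. The log2 fold change was 0.79 ± 0.254 (SE, edgeR adjusted p = 0.063) against CTL and 0.87 ± 0.278 (edgeR adjusted p = 0.075) against RCV. Without CPZ replicate 4 it was 1.01 against CTL (edgeR adjusted p = 0.0047), and without CTL replicate 4 it was 0.96 (edgeR adjusted p = 0.026). It was also called against both groups without the filter on low counts (edgeR adjusted p = 0.037 and 0.042). In 20 of the 23 alternatives Chac1 was not called against CTL, and in 21 of the 23 it was not called against RCV.

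Gdf15 (chromosome 8, 70629393 to 70632456, minus strand), a secreted hormone that acts on the hindbrain and is used as a marker of mitochondrial stress, was counted almost only in CPZ. The CPZ libraries held 14, 20, 18 and 4 counts, while 1 of 5 CTL libraries and 1 of 4 RCV libraries held a single count and the others none. The mean was 1.87 ± 0.924 CPM (SD, n = 4) in CPZ. The ratio of the summed counts was 60.5 for CPZ against CTL, with a 95% counting interval of 10.4 to 2430, and 42.4 for CPZ against RCV, with an interval of 7.30 to 1704. These intervals cover counting error only and leave out the spread between the CPZ libraries. Without a filter on low counts, the edgeR test called it in both comparisons (adjusted p = 8.4e-06 and 0.00025).

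Fgf21 (chromosome 7, 45613886 to 45615490, minus strand), a secreted factor known as a stress hormone of liver and muscle, had 0 counts in all 13 libraries. A count of 0 allows up to 0.0922 CPM in CTL, 0.0996 in CPZ and 0.132 in RCV over the summed libraries, 3 counts in each, so that a lower level was not detectable at this depth. The label of secreted signals therefore rests on Gdf15 alone in these libraries.

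**Figure D3:**
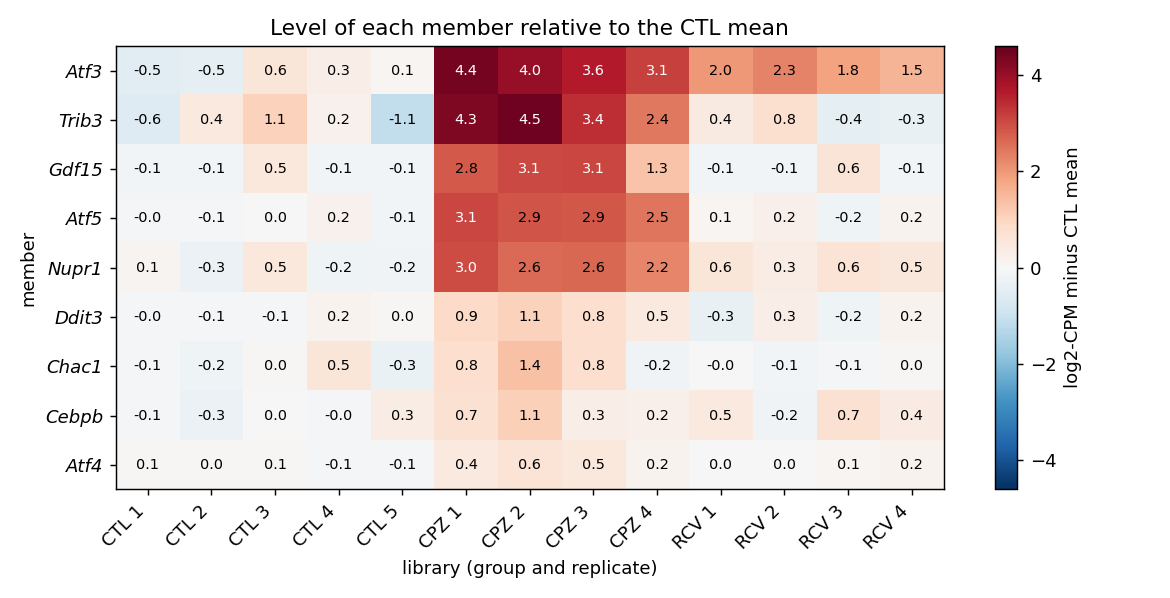
Log2-CPM of the 9 members with any count, minus the CTL mean of the same gene, in each library (columns) as colour and number. The 4 CPZ columns are positive for every gene except Chac1 in CPZ replicate 4, and in each RCV column Atf3 has the largest value of the 9 genes.

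CPZ replicate 4 had the lowest value of the 4 CPZ libraries in 9 of the 9 members with counts. Over all genes tested this library was the lowest of the 4 in 26.5% of genes, and over genes called higher in CPZ in 31.5%, while CPZ replicate 3 was lowest in 56.5% of the latter. CPZ replicate 2 was highest for 5 members, CPZ replicate 1 for 3 and CPZ replicate 3 for Gdf15. The summed microglia markers ordered the libraries differently, with 2399, 2146, 1180 and 1461 CPM in CPZ replicates 1 to 4, so that the third and not the fourth was lowest. The summed oligodendrocyte markers were 2169, 1860, 2078 and 3173 CPM, highest in CPZ replicate 4. Without this library, 9 members were called in CPZ against CTL instead of 6, with Chac1, Cebpb and Gdf15 added.

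At 2 weeks of recovery 1 member, Atf3, was higher than in controls, while Atf5 (0.08 ± 0.131), Atf4 (0.08 ± 0.08) and Ddit3 (0.00 ± 0.146) had log2 fold changes near 0. That of Trib3, 0.05 ± 0.906, rests on 11 counts in RCV and 15 in CTL, and its counting interval for the ratio of RCV to CTL runs from 0.435 to 2.44. Atf3 is 1 of 8 tested members, beside 0.36% of all genes called higher in RCV against CTL, and 1 of 8 without overlap of the libraries against 2.21% of all genes. Atf3 rose by a log2 fold change of 2.59 ± 0.455 (SE, edgeR adjusted p = 0.02), with 7 to 17 counts per RCV library and 1 to 4 per CTL library. This call was lost in 10 of the 22 alternatives that gave a value, among them limma-voom and the TPM scale. Over the 22 the adjusted p ranged from 0.0006 to 0.19 and the fold change was positive in each. It was lost without CTL replicate 1 (0.066), CTL replicate 2 (0.055), CTL replicate 5 (0.055), RCV replicate 1 (0.067) or RCV replicate 2 (0.10), all edgeR adjusted p values. Microglia and astrocyte markers were also above CTL in the RCV libraries, in sum, by the ranges given above, with 1 of 10 and 2 of 8 called higher. The microglia marker called was Ctss at 1.24 ± 0.207 (edgeR adjusted p = 0.028). The astrocyte markers called were Gfap at 1.80 ± 0.151 and Aqp4 at 0.44 ± 0.087 (edgeR adjusted p = 0.00011 and 0.038). Within the astrocyte sum, Gfap alone went from a mean of 165 CPM in CTL to 576 CPM in RCV. The part of both cell types in the Atf3 value was not tested. For Nupr1 the log2 fold change was 0.51 ± 0.212 (edgeR adjusted p = 0.67), and for Cebpb 0.39 ± 0.23 (edgeR adjusted p = 0.90).

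At the end of feeding, Atf3, Atf4, Atf5, Ddit3, Nupr1 and Trib3, 6 of 8 tested members, were also higher than in RCV. This comparison shares the CPZ libraries with the one against CTL. The background was 5.13% of all genes called higher in CPZ against RCV, and 0 of 8 members were called lower against 1.88% of all genes. At an unadjusted p below 0.05 edgeR had 7 members higher and 0 lower, and DESeq2 and limma-voom also called 6 higher and 0 lower. In 5 of the 8 tested members, and in Gdf15, all CPZ libraries lay above all RCV libraries, against 8.26% of all genes tested. The share of the CPZ change that was still present in RCV was computed per RCV library on the log2-CPM scale, where 0 is the CTL mean and 1 the CPZ mean. It was 0.506 ± 0.0824 (SD, n = 4) for Atf3, 0.196 ± 0.0457 for Nupr1 and 0.189 ± 0.157 for Atf4. It was 0.0263 ± 0.0645 for Atf5, 0.0285 ± 0.158 for Trib3 and -0.0249 ± 0.373 for Ddit3. The CTL means of Atf3 and Trib3 rest on 1 to 4 and 0 to 7 counts per library. Their shares therefore depend on the prior count of 2 and on the log2 scale. In mean CPM, Atf3 stood at 0.345 in CTL, 8.8 in CPZ and 2.10 in RCV. The 4 Atf3 shares, 0.408 to 0.605, lay above all those of Nupr1, 0.132 to 0.239, and of Atf5, -0.067 to 0.0784, while Ddit3 ranged from -0.411 to 0.364.

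**Figure D4:**
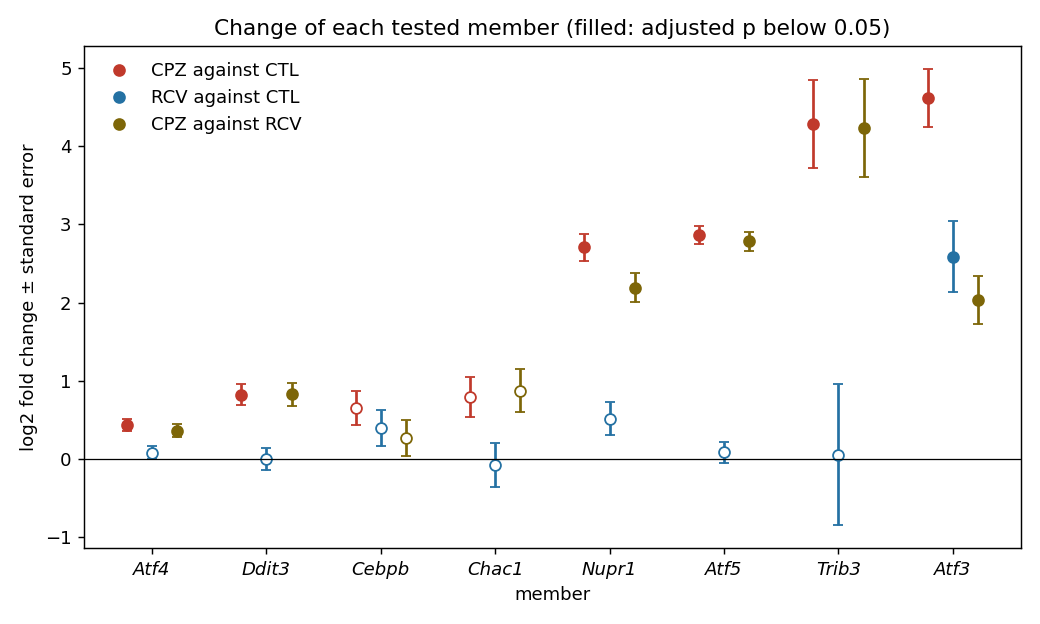
Log2 fold change ± SE (y axis) of the 8 tested members in the 3 comparisons, from one edgeR fit, with filled points for an adjusted p below 0.05. In RCV against CTL, Atf3 alone is filled, at 2.59, and the other 7 lie between -0.09 and 0.51.

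The order of the members also changed on the TPM scale, which corrects for transcript length and so allows genes to be compared. In CTL, Atf4 was highest at 94.8 ± 3.57 TPM (SD, n = 5), followed by Ddit3 at 42.6 ± 4.53, Atf5 at 19.8 ± 1.84 and Nupr1 at 11.4 ± 2.50 TPM. The first 3 of these did not overlap with the next, whereas Nupr1, Cebpb (7.20 ± 1.30) and Chac1 (6.52 ± 1.76) overlapped with their neighbours, and Trib3, Atf3 and Gdf15 were all below 1 TPM on average. In CPZ, Atf5 at 142.5 ± 26.5 TPM (SD, n = 4) and Atf4 at 126 ± 18.3 TPM were highest and overlapped, and Ddit3 at 75.9 ± 11.2 and Nupr1 at 74.9 ± 16.0 TPM formed a second overlapping pair. Chac1, Cebpb, Trib3 and Atf3 followed between 9.61 and 11.1 TPM with no separation, and Gdf15 at 3.08 ± 1.54 TPM was apart from them. In RCV the order of the first 6 members was that of CTL, although Atf5 and Nupr1 now overlapped. Atf3 at 2.36 ± 0.551 TPM stood apart above Trib3 at 0.585 ± 0.503 TPM. The ratio of Atf5 to Atf4 within a library was 0.21 ± 0.0255 in CTL, 1.13 ± 0.14 in CPZ and 0.21 ± 0.0288 in RCV, and lay above 1 in all 4 CPZ libraries (1.03 to 1.33).

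Other genes of the pathway were counted from lists drawn up from general knowledge, again with earlier results of these libraries known. Of 45 tested ATF4 target genes outside the members, 21 were called higher and 0 lower in CPZ against CTL, beside 7.66% and 2.5% of all genes, with a median log2 fold change of 0.26. At an unadjusted p below 0.05, 28 were higher and 3 lower in the edgeR test, and DESeq2 called 1 lower and limma-voom 0. The largest were Eif4ebp1, a brake on cap-dependent translation, at 2.17 ± 0.298 (edgeR adjusted p = 9.7e-05), and the cystine transporter Slc7a11 at 1.59 ± 0.153 (edgeR adjusted p = 9.9e-06). Next came the mitochondrial folate enzymes Aldh1l2 at 1.35 ± 0.145 (edgeR adjusted p = 9.4e-06) and Mthfd2 at 1.34 ± 0.213 (edgeR adjusted p = 0.00043). Against RCV, 17 of the 45 were called higher in CPZ and 0 lower (1 lower at an unadjusted p below 0.05, and 0 by DESeq2 and limma-voom). On the TPM scale the call counts for this list fell to between 9 and 11 in CPZ against CTL and to 8 in CPZ against RCV. The 17 became 10 without CPZ replicate 1 or RCV replicate 1, and 11 without CPZ replicate 2 or RCV replicate 3.

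Of 16 kinases and regulators of eIF2alpha, 2 were called higher and 0 lower in CPZ against CTL by edgeR, DESeq2 and limma-voom, beside 7.66% and 2.5% of all genes, and at an unadjusted p below 0.05 also 2 were higher and 0 lower. The list's median log2 fold change was 0.02. They were Eif2ak2, the kinase PKR that responds to double-stranded RNA and interferon, at 1.27 ± 0.146 (edgeR adjusted p = 1.7e-05), and the phosphatase subunit Ppp1r15a, which reverses eIF2alpha phosphorylation, at 0.50 ± 0.127 (edgeR adjusted p = 0.018). Ppp1r15a lost its call on the TPM scale and without CPZ replicate 1 (edgeR adjusted p = 0.081) or CPZ replicate 2 (edgeR adjusted p = 0.071). The RNA of the other 3 kinases had log2 fold changes of 0.06 ± 0.054 for the heme-regulated Eif2ak1, 0.06 ± 0.081 for the endoplasmic reticulum kinase Eif2ak3 and -0.06 ± 0.085 for the amino acid sensor Eif2ak4 (edgeR adjusted p = 0.58, 0.74 and 0.76). The activity of these kinases is set by phosphorylation, which RNA does not show.

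Of 24 tested genes of the endoplasmic reticulum unfolded protein response, 4 were called higher and 0 lower in CPZ against CTL, beside 7.66% and 2.5% of all genes. At an unadjusted p below 0.05 the edgeR test had 8 higher and 0 lower, DESeq2 called 6 higher and 0 lower, and limma-voom 5 higher and 0 lower. The 4 were the membrane-bound factor Creb3l1 at 1.10 ± 0.242 (edgeR adjusted p = 0.0059), Sdf2l1 at 1.02 ± 0.165, the degradation factor Edem1 at 0.89 ± 0.104 and the disulfide isomerase Pdia3 at 0.27 ± 0.072. Pdia3 lost its call in 8 of 23 alternatives, among them without CTL replicate 1 (edgeR adjusted p = 0.058), CTL replicate 2 (0.056), CPZ replicate 1 (0.073) or CPZ replicate 3 (0.06). Of 12 mitochondrial chaperones and proteases, Hspe1 at 0.23 ± 0.064 (edgeR adjusted p = 0.029) and Hspa9 at 0.21 ± 0.052 (edgeR adjusted p = 0.015) were called higher, 2 of 12 beside 7.66% of all genes. Hspe1 lost its call without CTL replicate 2, CTL replicate 4, CPZ replicate 1 or CPZ replicate 2, with edgeR adjusted p values from 0.058 to 0.086, and with no filter on low values, for counts (edgeR adjusted p = 0.06) and for TPM (limma adjusted p = 0.065). Hspa9 lost its call without CPZ replicate 1 (edgeR adjusted p = 0.063) or CPZ replicate 2 (0.053) and on the TPM scale (limma adjusted p = 0.09 to 0.13). With the replicate number as a block, both had an edgeR adjusted p of 0.086, and 0 of the 12 genes were called. The medians of these lists were 0.12 and 0.03, against -0.02 over all genes. In 6 of the 24 endoplasmic reticulum genes every CPZ library lay above every CTL library, and in 0 below, while 8.25% of all genes tested lay above. In CPZ against RCV, 3 of the 24 were called higher and 0 lower, beside 5.13% and 1.88% of all genes, with a median of 0.165.

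Of 24 tested genes of bZIP factors that can pair with the members, 5 were called higher and 0 lower in CPZ against CTL, beside 7.66% and 2.5% of all genes (5 higher and 0 lower also at an unadjusted p below 0.05 and by DESeq2 and limma-voom). The 5 were Maff at 2.64 ± 0.416, Cebpd at 2.22 ± 0.386, Cebpa at 1.76 ± 0.182, Nfe2l2 at 1.09 ± 0.131 and Cebpg at 0.87 ± 0.088. Cebpa is a known factor of myeloid cells, Nfe2l2 encodes the oxidative stress factor NRF2, and Cebpg encodes a known partner of ATF4. The list's median was 0.08, and the rest of its tested genes had adjusted p values above the threshold. Cebpe, Fosl1, Batf, Batf2 and Batf3 were below 1 CPM on average in every group and were not tested. In Fosl1 and Batf3 every CPZ library lay above every CTL library, at levels near the floor. Their means were 0.0578 and 0.165 CPM in CTL and 0.489 and 0.787 CPM in CPZ. Among tested genes this held for 8.25%, a share that leaves out genes that failed the filter, as these did. Of the receptors of the secreted members, Gfral had 0 counts, Klb and Fgfr4 were below 0.5 CPM in every group and were not tested, and the GFRAL co-receptor Ret at 0.10 ± 0.267 and the FGF receptor Fgfr1 at 0.10 ± 0.08 were not called (edgeR adjusted p = 0.88 and 0.56). Fgfr2 was called lower at -0.54 ± 0.156 (edgeR adjusted p = 0.044), a call lost in 15 of 23 alternatives, among them without CTL replicate 2, 3 or 5, any of the 4 CPZ libraries, or RCV replicate 1 or 3. Fgfr3 had a value of -0.25 ± 0.088 (edgeR adjusted p = 0.085), with every CPZ library below every CTL library. In CPZ against RCV it was called lower at -0.34 ± 0.092 (edgeR adjusted p = 0.034), again without overlap. This was 1 of the 4 tested receptors, beside 1.88% of all genes called lower. In 10 of the 23 alternatives none of these receptors was called in CPZ against RCV. Among paralogs of the members, Trib1 at 0.44 ± 0.216, Trib2 at -0.22 ± 0.091 and Chac2 at 0.26 ± 0.176 were not called (edgeR adjusted p = 0.26, 0.15 and 0.45).

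In RCV against CTL, 0 of the 128 tested genes of all 7 lists were called by edgeR, DESeq2 or limma-voom, against 0.36% of all genes called higher. At an unadjusted p below 0.05 the edgeR test had 6 of them higher and 3 lower. Eif4ebp1 had a log2 fold change of 0.38 ± 0.354, Slc7a11 0.17 ± 0.163 and Maff 1.09 ± 0.499 (edgeR adjusted p = 0.98, 0.98 and 0.78).

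**Figure D5:**
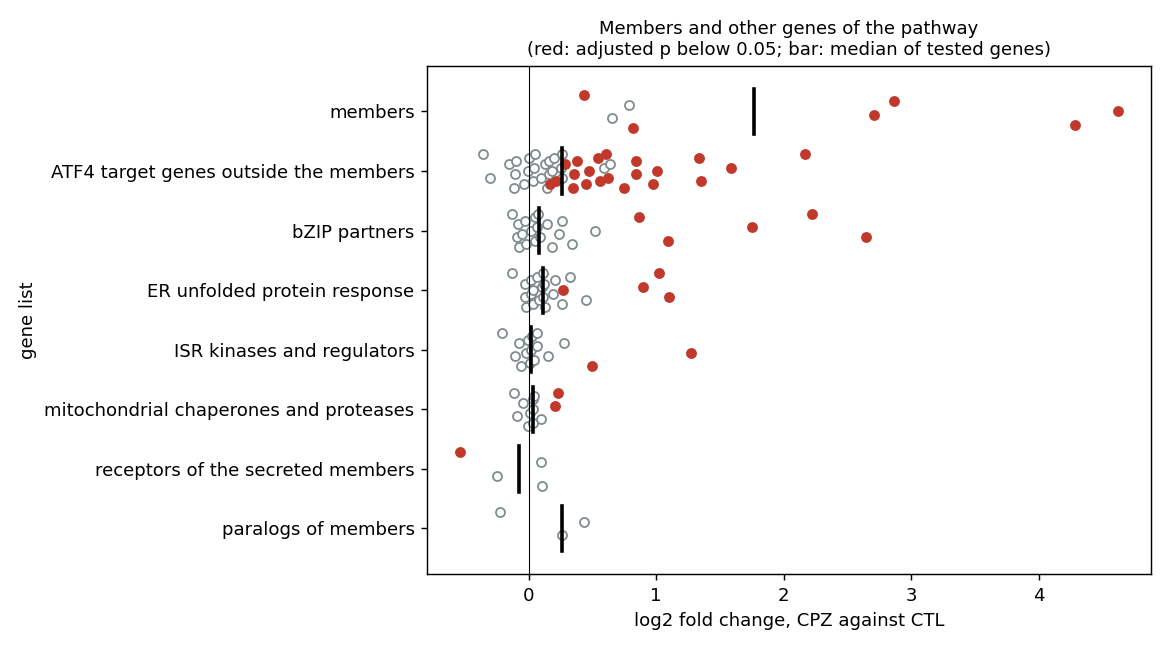
Log2 fold change of CPZ against CTL (x axis) for each tested member and each tested gene of the other 7 lists (rows), 1 point per gene, red where the edgeR adjusted p is below 0.05, with a bar at the list's median. Points of the ATF4 target list reach from -0.36 to 2.17, while most points of the kinase and mitochondrial lists lie close to 0.

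The genes whose pattern was most like that of each strongly changed member were found among 14136 genes, as the smallest root mean square difference of centred log2-CPM over the 13 libraries. For Atf3 they were the complement receptor C3ar1 (0.37) and the macrophage gene Mpeg1 (0.433), which had log2 fold changes of 2.03 and 1.69 in RCV against CTL. The member nearest to Atf3, Nupr1, was farther away at 0.715, which would be rank 61 among the genes ranked. For Atf5 they were the p21 gene Cdkn1a (0.31) and the lysosomal protease gene Ctsd (0.375), with Nupr1 at 0.351 as the nearest member. For Nupr1 they were Bst2 (0.34) and the progranulin gene Grn (0.346), with Atf5 as the nearest member. For Trib3 they were Fcrls (0.753) and Ctsd (0.777), while its nearest member, Atf5, was at 0.722. These differences describe 13 libraries that fall into 3 groups, and most of each pattern is the difference between CPZ and the rest.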

How the data were processed

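Bulk RNA-seq libraries of mouse brain hemispheres, 13 in number, were analysed, grouped by the sample labels. Estimated counts of each gene, without scaling to depth, and TPM values, scaled to transcript length and depth, were deposited by the authors. The labels name STAR, RSEM and mm10 without versions, and the study's methods name the RNASequest pipeline, the Kapa mRNA HyperPrep Kit and paired reads. Of the estimated counts, 4.45% were not whole, and all were rounded. The 92 spike-in identifiers held 0 counts and were left out.

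In edgeR 4.0.16, low genes were removed by filterByExpr, TMM factors were applied, and a single robust quasi-likelihood model of all 13 libraries with a mean per group gave F tests, with p values adjusted (Benjamini-Hochberg) over 14985 genes at a threshold of 0.05. The SE is the absolute log2 fold change divided by the square root of F. Log2-CPM used a prior count of 2. The design text of the series names 10 mice for 13 libraries, while a figure legend of the study counts 13 samples. The p values therefore measure the spread between libraries, some of which may share a mouse. No pair of libraries within a group agreed within sampling noise (chi-square per degree of freedom of 4.50 to 17.8 over 22 pairs). The fit was checked on simulated counts. Counting intervals are exact, at 95%, and cover counting error only, and a count of 0 allows 3 counts.

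The members and lists were chosen with earlier results of these data known. The text names the 10 members, up to 4 called genes per list with the largest absolute log2 fold change in CPZ against CTL, the 4 eIF2alpha kinases, Ppp1r15a, the receptors of the secreted members, the paralogs and the 2 genes most like each called member with an absolute log2 fold change of at least 1. Outside this rule, chosen after their values were seen, are Cebpg, the bZIP genes that were not tested and the genes that overlap members. The same holds for the cell type markers given by name, Ctss, Gfap, Aqp4 and Retnlg. A gene was left out of the lists and is not reported here. Of the identifiers, 98.1% matched GENCODE M21, which gave the gene positions. Promoter sequences are from RefSeq (GRCm38.p6).

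Alternatives were DESeq2 1.42.0 size factors and Wald test, limma 3.58.1 voom, limma on log2(TPM + 1) or log2(TPM + 0.1) (TPM of at least 1 in 4 libraries, or no filter), no filter or at least 10 counts in 4 libraries, only the 2 groups compared, the replicate number as a block and each library left out. Other software was R 4.3.3, Python 3.11.15, numpy 2.4.6, pandas 2.3.3, scipy 1.17.1 and matplotlib 3.10.9.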

Additional observations from a re-analysis of the deposited data

Results flagged for a closer look

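In Gdf15, 3 values stood apart from the rest of their group by the gap to the nearest library divided by the range of the group. In CPZ, replicate 4 held 0.517 CPM (4 counts) against 2.02 to 2.50 CPM in the other 3 libraries, a ratio of 0.847. In CTL replicate 3 (0.154 CPM) and RCV replicate 3 (0.193 CPM) a single count stood against 0 in all other libraries of the group, which gives a ratio of 1.0 in both. Over the 27 sets of values examined, chance alone flags about 1 in 20, and a single count against 0 is within counting error.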

How the results depend on the processing

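Across 23 alternatives, the calls of Atf3, Atf4, Atf5, Ddit3, Nupr1 and Trib3 in CPZ against CTL kept direction and side of the threshold. The 1522 genes called in CPZ against CTL became 992 with log2(TPM + 1) and no filter. The 1050 called in CPZ against RCV became 599 with log2(TPM + 1), 508 with log2(TPM + 0.1) and 487 with log2(TPM + 1) and no filter, and 632 (without CPZ replicate 1) to 1170 with a library left out. The 56 called in RCV against CTL became 131 with DESeq2, 12 with limma-voom, 22 with log2(TPM + 1) and no filter, and 21 (without RCV replicate 2) to 87 (without CPZ replicate 3) with a library left out. The 1 member called in RCV against CTL, Atf3, became 0 with limma-voom, the replicate block, each of the 3 TPM settings and with only the 2 groups compared, where it did not pass the filter, and was 0 to 1 with a library left out. The cause was not tested, apart from the fewer samples of the last. With a library left out, 6 to 9 members were called in CPZ against CTL and 5 to 8 in CPZ against RCV.

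Same-numbered libraries did not deviate together (correlations of -0.199 to 0.136 over 12 pairs, against -0.205 to 0.265 over 44 other pairs), so no pairing by replicate number was seen. Deviations from the mean of a small group depend on each other, so these correlations cannot exclude a pairing. The replicate block gave 1172 genes (6 members) called in CPZ against CTL, 42 (0 members) in RCV against CTL and 755 (6 members) in CPZ against RCV, and Atf3 in RCV against CTL had an edgeR adjusted p of 0.062. Depth limits Gdf15, with at most 20 counts a library, and Fgf21, with 0. It also limits Atf3 and Trib3 outside CPZ, where these genes held at most 17 counts a library.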
